A study of Homo sapiens with 18 samples.

Results

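EGR1, EGR2, EGR3, IER2, IER3, KLF2, KLF4, KLF6, KLF10 and MYC encode transcription factors and regulators of the immediate-early and stress response, and their transcripts were followed in OVCAR3 cells exposed to antibodies. The 10 genes were chosen by name and make up 10 of the 55765 gene symbols counted. OVCAR3 is an established human cell line of high-grade serous ovarian carcinoma, grown here as an adherent line in RPMI medium with 2% fetal bovine serum, and all groups come from this 1 line. The study asked how tumour cells respond to IgA taken up through the polymeric immunoglobulin receptor and to IgA that recognizes a tumour antigen. A first series compared cells given human IgA without known specificity (non-specific IgA), human IgG without known specificity (non-specific IgG) and untreated cells. A second series compared cells given IgA reactive to BDNF, a secreted growth factor (BDNF IgA), IgA reactive to TSPAN7, a membrane tetraspanin (TSPAN7 IgA), and its own untreated cells, both antibodies deriving from tumour B cells according to the study's methods. Each of the 6 groups had 3 libraries. Antibodies were given at 0.5 µg per ml for 24 h according to the labels, whereas another description of the same experiments gives a shorter time. The study calls the replicates of the first series experiments, but neither it nor the labels say whether each library of either series came from a separate culture. Where they did not, the p-values measure only the spread between these libraries, which may be technical.

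Immediate-early genes are transcribed within minutes of a growth factor, cytokine or stress signal, without new protein synthesis, and most of their transcripts are short-lived. EGR proteins are zinc-finger activators that bind GC-rich sites downstream of MAP kinase signalling, Krüppel-like factors (KLF) bind GC boxes and govern differentiation, quiescence and stress programmes, and IER2 and IER3 are small response proteins, of which IER3 modulates survival under stress and NF-κB signalling. MYC pairs with MAX to drive ribosome biogenesis and growth, and is both an immediate-early gene and a constitutively expressed oncogene in many carcinomas.

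Libraries of the first series held 27920733 to 42371474 counts and those of the second 39254350 to 47381836, and 18012 and 18732 genes entered the tests. IgA replicate 3 stood apart: mitochondrial transcripts held 19.1% of its counts, against 5.75 to 8.32% in the other 8 libraries of the first series, and it received the lowest quality weight, 0.278. Its part in the results was not tested beyond repeating the comparisons of non-specific IgA without it. Those values are given below for the EGR, KLF and IER genes named at the start and for MYC. No such values are given for the further gene lists or for the correlations between genes, which include this library. All 11 markers of serous carcinoma cells on the list, PAX8 and WT1 among them, had at least 216 counts in every library. Of 13 leukocyte markers, CD3D and TYROBP had 0 counts in every library, whereas PTPRC had 6 to 56 and CD14 had 9 to 45. The summed level of the list was 30.3 to 80.4 normalised counts. Of 8 fibroblast and endothelial markers, the sum was 2464 to 4894 normalised counts with non-specific IgA. It was 2107 to 2508 in the other first-series groups, so the ranges overlapped, and 2908 to 3876 in the second series. COL1A2, with 1404 to 2237 raw counts, and COL1A1, with 580 to 1065, made up most of it in the first series. Each of the others, COL3A1, DCN and PDGFRB among them, had at most 57 counts there. The part of this list in the results was not tested. In bulk RNA, fewer cells of a type and less RNA per cell cannot be told apart.

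The sequences in front of these genes are given first, so that the transcript values can be read beside them. RefSeq (GRCh38.p14) supplied the 250 bases before the transcription start for 8 starts of 6 of the genes. The CArG box, the site of serum response factor (SRF), occurred 2 times before EGR1 and 1 time before the third start of EGR2, and in 1.16% of 35116 human windows of the same length. TGACG, the core of the cyclic AMP response element (CRE), occurred 2 times before each of EGR1, this EGR2 start and KLF4 and 1 time before IER2, and in 21.2% of all windows. Of the EGR2 starts, only the third, which held a CArG box, is shown. Both strands were searched, and capitals mark the CArG boxes and the CRE cores in the following windows, shown because EGR1 and EGR2 fell with non-specific IgA.
EGR1 (chr5:138465229-138465478, plus strand): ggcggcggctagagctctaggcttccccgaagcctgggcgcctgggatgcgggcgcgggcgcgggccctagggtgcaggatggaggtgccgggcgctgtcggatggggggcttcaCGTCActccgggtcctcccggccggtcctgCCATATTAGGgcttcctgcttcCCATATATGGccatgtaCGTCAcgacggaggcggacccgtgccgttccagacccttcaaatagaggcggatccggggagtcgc
EGR2 (chr10:62816367-62816616, minus strand): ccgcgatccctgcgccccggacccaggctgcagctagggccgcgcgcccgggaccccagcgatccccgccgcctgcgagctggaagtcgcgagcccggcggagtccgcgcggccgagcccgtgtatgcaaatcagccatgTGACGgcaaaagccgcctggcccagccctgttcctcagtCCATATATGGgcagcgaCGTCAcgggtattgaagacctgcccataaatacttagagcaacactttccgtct

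The windows of KLF2, KLF4, KLF6, IER2 and the first and second starts of EGR2 held no match to the CArG box. This says only that these letters are not in these stretches. The GC box GGGCGG was found 4 times before KLF2, 4 times before KLF4, 3 times before IER2, 2 times before KLF6, 2 and 4 times before the first and the second start of EGR2, and not before EGR1 or the third start of EGR2, and 42.6% of all windows held it. The EGR site GCGNGGGCG, where N is any base, was found 1 time before each of EGR1, KLF2, KLF4 and KLF6, and 8.41% of all windows held it. Letters of the 2 motifs can share bases. The E-box CACGTG, the site of MYC and MAX, was found 1 time before each of KLF4, KLF6 and the second start of EGR2, against 6.34% of all windows. Of the genes with a window, KLF2, KLF4 and KLF6 rose with both non-specific IgA and TSPAN7 IgA. The window of KLF4, with 2 CRE cores, 4 GC boxes and 1 EGR site, is not shown. Whether such letters bear on the direction of change was not tested. Capitals mark the GC boxes and the EGR sites in the windows of KLF2 and KLF6.
KLF2 (chr19:16324576-16324825, plus strand): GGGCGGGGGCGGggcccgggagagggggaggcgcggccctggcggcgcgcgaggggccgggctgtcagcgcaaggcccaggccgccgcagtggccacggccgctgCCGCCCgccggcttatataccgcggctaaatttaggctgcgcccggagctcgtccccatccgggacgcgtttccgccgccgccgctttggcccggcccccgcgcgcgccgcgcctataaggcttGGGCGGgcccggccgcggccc
KLF6 (chr10:3785210-3785459, minus strand): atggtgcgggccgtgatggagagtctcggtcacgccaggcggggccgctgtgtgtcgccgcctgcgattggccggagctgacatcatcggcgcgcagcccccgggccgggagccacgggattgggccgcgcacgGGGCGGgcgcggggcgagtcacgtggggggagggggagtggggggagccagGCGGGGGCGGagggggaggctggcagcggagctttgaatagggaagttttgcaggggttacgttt

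The ends of the transcripts differ as well. AU-rich stretches of the 3′ untranslated region mark a messenger RNA for rapid decay, and their core is ATTTA in the DNA. IER3 held 6 of them in 737 bases, or 8.14 per kb, a density at percentile 97.6 of 18734 human transcripts, whose median was 1.58 per kb. MYC held 6 in 1993 bases, KLF6 6 in 3543 bases, KLF2 4 in 1654 bases, EGR1 1 in 1222 bases and IER2 0 in 1053 bases. The densities per kb were 3.01 for MYC, 2.42 for KLF2, 2.23 for KLF10, 2.22 for KLF4 and 1.69 for KLF6. They were 1.65 for EGR2, 1.07 for EGR3, 0.818 for EGR1 and 0 for IER2, so KLF6 and EGR2 were alike and near the median. The extended core TATTTAT occurred 4 times in IER3 and 1 time in each of KLF2, KLF6 and MYC, and 32.4% of all transcripts held it. The first such site of the 3 genes is shown with the extended core in capitals, starting at base 257 of the region in IER3, base 72 in KLF2 and base 1172 in KLF6.
IER3: cctaattaaTATTTATatgTATTTATgta
KLF2: tgtgactggTATTTATtggacccagagaa
KLF6: tgtttctctTATTTATgccttgaggacta

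Levels were compared between genes as CPM per kb, that is the depth-scaled count divided by the length of the transcript. In untreated cells of the first series, EGR1 was highest with 157 ± 58.7 (SD, n = 3) CPM per kb and IER3 followed with 69.7 ± 13.4. IER2 with 22.7 ± 4.99, KLF6 with 16.5 ± 3.2, KLF10 with 15.7 ± 2.66 and MYC with 13.1 ± 1.48 CPM per kb were neighbours whose ranges overlapped. KLF4 was at 2.8 ± 0.0658 and KLF2 at 1.69 ± 0.655 CPM per kb. EGR2 with 0.391 ± 0.0731 and EGR3 with 0.141 ± 0.0165 CPM per kb were the lowest. With non-specific IgA the order of the levels changed at the top: IER3 reached 345 ± 13.8 CPM per kb, KLF6 52.4 ± 12.2, EGR1 37.2 ± 24.6 and KLF10 27 ± 2.22, and the ranges of KLF6 and EGR1 overlapped. In untreated cells of the second series EGR1 with 189 ± 12.5 and IER3 with 174 ± 10.8 CPM per kb overlapped, followed by IER2 with 51.8 ± 3.15, KLF10 with 22.3 ± 0.643 and KLF6 with 17.7 ± 0.464.

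Non-specific IgA split the 10 genes. Against non-specific IgG, the 4 KLF genes and IER3 rose and the 3 EGR genes fell, and IER2 and MYC did not pass the test. Thus 5 of the 10 genes were called higher, against 12.6% of all genes tested, and 3 were called lower, against 11.6%. A call here is an adjusted p under 0.05 in edgeR's quasi-likelihood test, adjusted over all genes tested. In 8 of the 10 genes the 3 IgA libraries did not overlap the 3 IgG libraries, against 40.3% of all genes. Against untreated cells, measured with the same IgA libraries, 5 were called higher (background 12.9%) and 2 lower (background 12.1%), and 8 did not overlap (background 39.9%). The counts against IgG were the same without IgA replicate 3, 5 higher and 3 lower, and so were those against untreated cells, 5 higher and 2 lower.

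**Figure D1:**
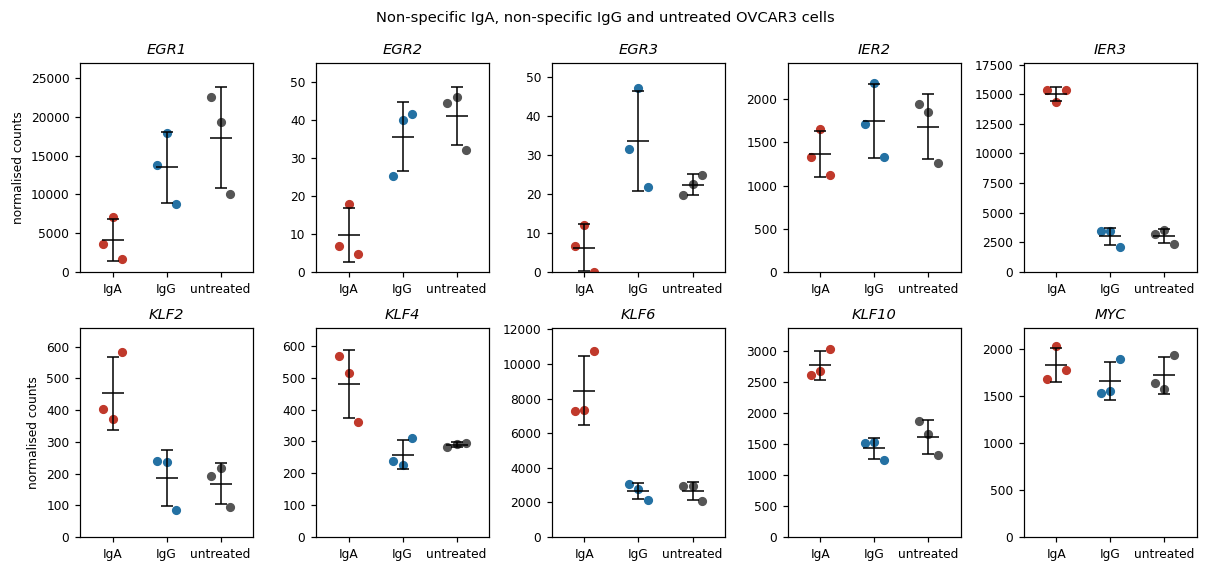
Normalised counts of the 10 genes in the first series, 1 panel per gene with its own linear axis from 0. Each point is a library (replicates 1 to 3 from left to right), and the bar with caps is the mean ± SD of 3 libraries; the IER3 points with IgA lie between 14344 and 15390, above all IgG and untreated points, whereas EGR1 points with IgA lie at or below 7058, under all others.

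IER3 had the steepest increase. It stood at 15390, 14344 and 15389 normalised counts in the 3 IgA libraries, at 3417, 3445 and 2150 in the IgG libraries and at 3177, 3547 and 2398 in untreated cells. A normalised count is the count a library would have at the average effective depth of its series. The IgA libraries lay close together, with a coefficient of variation of 4.01%, and the groups were far apart. The log2 fold change was 2.32 ± 0.18 (SE) against IgG (adjusted p = 4.37e-06) and 2.31 ± 0.18 against untreated cells (adjusted p = 4.33e-06), the latter a 4.95-fold increase. Without IgA replicate 3 it was 2.30 and 2.29.

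KLF6, a ubiquitous Krüppel-like factor of wound repair that is often inactivated in tumours, also rose. It stood at 7298, 7372 and 10746 normalised counts with IgA, at 3080, 2772 and 2151 with IgG and at 2958, 2969 and 2068 in untreated cells. All 3 IgA libraries exceeded every other library, replicate 3 by the most. KLF6 had a log2 fold change of 1.67 ± 0.19 against IgG (adjusted p = 7.8e-05) and 1.67 ± 0.19 against untreated cells (adjusted p = 7.01e-05), and 1.46 against either group without IgA replicate 3. KLF10, a TGF-β-induced repressor, stood at 2607, 2673 and 3031 normalised counts with IgA, at 1513, 1538 and 1237 with IgG and at 1866, 1661 and 1324 in untreated cells. Its groups did not overlap either, and the log2 fold change was 0.95 ± 0.14 against IgG (adjusted p = 0.000437) and 0.78 ± 0.14 against untreated cells (adjusted p = 0.00146). Without IgA replicate 3 it was 0.88 and 0.71, both called.

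KLF2 and KLF4, paralogs that govern vascular and lymphocyte quiescence and epithelial differentiation, were present at lower counts. KLF2 stood at 402.5, 371.7 and 584.5 normalised counts with IgA, at 239.9, 235.8 and 84.5 with IgG and at 193.1, 216.9 and 94.3 in untreated cells. The groups did not overlap, but IgG replicate 3 and untreated replicate 3 were far below their companions. KLF2 had a log2 fold change of 1.27 ± 0.37 against IgG (adjusted p = 0.0243), and 0.92 without IgG replicate 3, when the call was lost (adjusted p = 0.0738). Against untreated cells it was 1.43 ± 0.37 (adjusted p = 0.0136), and 1.14 without untreated replicate 3, when the call was also lost (adjusted p = 0.0611). Without IgA replicate 3 the log2 fold change of KLF2 was 1.04 against IgG (adjusted p = 0.0492) and 1.21 against untreated cells (adjusted p = 0.0259), still called. KLF4 stood at 566.2, 515.6 and 361.7 normalised counts with IgA, at 237.1, 226.7 and 310.7 with IgG and at 282.4, 293.4 and 294.9 in untreated cells. IgA replicate 3 was here the lowest of its group, in contrast to the other KLF genes. KLF4 had a log2 fold change of 0.90 ± 0.19 against IgG (adjusted p = 0.00463) and 0.73 ± 0.19 against untreated cells (adjusted p = 0.0133). The call against untreated cells was lost with scaling to library size alone (0.54, adjusted p = 0.0844), without IgA replicate 1 (adjusted p = 0.0523) and without untreated replicate 1 (adjusted p = 0.054). KLF4 had 1.07 against IgG and 0.90 against untreated cells without IgA replicate 3, both called.

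EGR1, the prototype of its family and a direct target of ERK and SRF, moved the other way. It stood at 3605, 7058 and 1684 normalised counts with IgA, at 13780, 17893 and 8807 with IgG and at 22587, 19279 and 10072 in untreated cells. Replicates of a group differed widely, replicate 3 being the lowest in each of the 3 groups, yet the highest IgA library lay below the lowest of the others. EGR1 had a log2 fold change of −1.71 ± 0.42 against IgG (adjusted p = 0.0114), that is 3.27-fold lower, and of −2.07 ± 0.43 against untreated cells (adjusted p = 0.00414). Without IgA replicate 3, the lowest library, it was −1.34 (adjusted p = 0.0118) and −1.70 (adjusted p = 0.00315). Without IgA replicate 2, the highest of the 3, it was −2.35 (adjusted p = 0.00158) and −2.71 (adjusted p = 0.000695).

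EGR2 and EGR3 rested on few reads. EGR2, known for hindbrain patterning and myelination, had 6, 18 and 3 raw counts with IgA, 27, 44 and 38 with IgG and 43, 55 and 40 in untreated cells. EGR3, known for muscle spindle development and lymphocyte activation, had 6, 12 and 0 raw counts with IgA, 34, 52 and 20 with IgG and 19, 27 and 31 in untreated cells. For both genes every IgA library lay below every other library once scaled. EGR2 had a log2 fold change of −1.79 ± 0.52 against IgG (adjusted p = 0.0252) and −1.99 ± 0.52 against untreated cells (adjusted p = 0.0144). That of EGR3 was −2.31 ± 0.70 against IgG (adjusted p = 0.0287), and −1.73 with a 95% interval of −3.24 to −0.22 against untreated cells, which missed the threshold (adjusted p = 0.0879) but passed it with DESeq2 (adjusted p = 0.0486) and without IgA replicate 2 (−2.55, adjusted p = 0.0377). The calls against IgG did not survive several changes of the fit: the EGR2 call was lost with limma voom (adjusted p = 0.0829), in a fit of only the 6 libraries (adjusted p = 0.0638) and on leaving out the first IgA, the second IgG or the third IgG library (adjusted p = 0.0714 to 0.0829). The EGR3 call was lost in the fit of 6 libraries (adjusted p = 0.0655) and on leaving out the first IgA, the first IgG or the second IgG library (adjusted p = 0.0658 to 0.13). Against untreated cells the EGR2 call was lost with limma voom (adjusted p = 0.0522). On leaving out IgA replicate 3, EGR2 was still called against IgG (adjusted p = 0.0444) and untreated cells (−1.70, adjusted p = 0.0246), and EGR3 differed by −1.83 (adjusted p = 0.028) and −1.25 (adjusted p = 0.119), against IgG and untreated cells. Without IgA replicate 2, which had the most counts of both genes among the IgA libraries, EGR2 differed by −2.59 and −2.79 and EGR3 by −3.13 and −2.55, all called.

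IER2, a nuclear immediate-early protein linked to cell motility, stood at 1329, 1653 and 1120 normalised counts with IgA, at 1719, 2186 and 1335 with IgG and at 1945, 1850 and 1260 in untreated cells. The groups overlapped. The log2 difference was −0.35 with a 95% interval of −0.79 to 0.08 against IgG (adjusted p = 0.221) and −0.30 with an interval of −0.73 to 0.13 against untreated cells (adjusted p = 0.303). Against IgG, IER2 was called lower with no filter on low counts (−0.37, adjusted p = 0.0419) and with a replicate block (−0.34, adjusted p = 0.0478). The differences of IER2 were −0.23 and −0.18 without IgA replicate 3, not called. MYC stood at 1680, 2030 and 1782 normalised counts with IgA, at 1533, 1551 and 1894 with IgG and at 1644, 1577 and 1942 in untreated cells, again with overlap. Its log2 difference was 0.14, interval −0.13 to 0.41, against IgG (adjusted p = 0.434) and 0.09, interval −0.18 to 0.36, against untreated cells (adjusted p = 0.641), and 0.16 and 0.11 without IgA replicate 3. With scaling to library size alone the sign of both MYC differences turned, to −0.09 and −0.11. That scaling shifted the median over all genes to −0.25 against IgG and −0.22 against untreated cells, from −0.01 in each, and the all-gene calls from 2265 higher and 2095 lower to 873 and 3631 against IgG, and from 2316 and 2187 to 1001 and 3296 against untreated cells.

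Ratios within a library need no scaling. The ratio of IER3 to EGR1 raw counts was 4.27, 2.03 and 9.14 in the 3 IgA libraries, against 0.141 to 0.248 in the 6 IgG and untreated libraries. The ratio of IER3 to IER2 counts was 11.6, 8.68 and 13.7 with IgA and 1.58 to 1.99 in the other 6. All 3 IgA libraries, the one rich in mitochondrial transcripts included, were on the same side for both ratios. The ratios use the same counts as the values of IER3, EGR1 and IER2 above, so they restate them and are not separate evidence. In the second series the ratio of IER3 to EGR1 counts was 0.343 to 0.372 with BDNF IgA, 0.397 to 0.418 with TSPAN7 IgA and 0.336 to 0.391 in untreated cells.

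**Figure D2:**
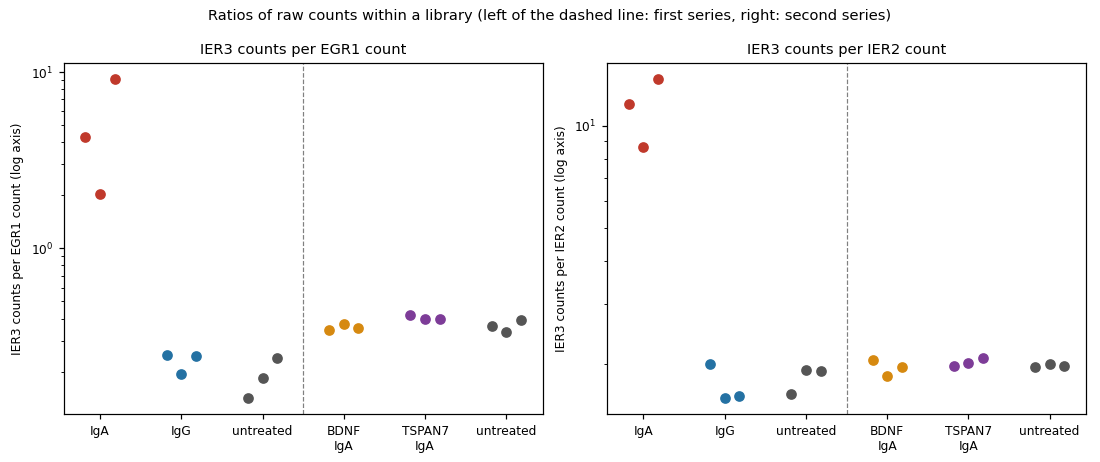
IER3 counts per EGR1 count (left) and per IER2 count (right) in each of the 18 libraries, on log axes, with the first series left of the dashed line and the second right of it; each point is a library. The 3 non-specific IgA libraries lie at 2.03 or more on the left panel, the other libraries of the first series at 0.248 or less and those of the second at 0.418 or less.

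Non-specific IgG left no call. Against untreated cells 0 of the 10 genes were called, with 0% of all genes called higher and 0% called lower by edgeR. The 10 genes had 0 with an unadjusted p under 0.05, as against 89 of 18012 genes (0.494%). That is below the share of 0.05 expected with no change at all, so the test was conservative here. The lack of calls is thus weak evidence of equal levels. DESeq2 and limma voom called 0 of the 10 as well. No gene of the 10 had separate groups, against 6.75% of all genes. The intervals were wide for EGR1, from −1.25 to 0.53 on the log2 scale, and narrower for IER3, from −0.39 to 0.36, KLF6, from −0.39 to 0.40, and MYC, from −0.32 to 0.21.

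The antigen-specific antibodies of the second series were first compared with untreated cells of that series. Sizes of change were not compared between the series. Untreated IER3 levels were 69.7 ± 13.4 CPM per kb in the first and 174 ± 10.8 in the second, whereas those of MYC were 13.1 ± 1.48 and 12.5 ± 0.178. Against untreated cells, IER2, IER3, KLF2, KLF4 and KLF6 rose with TSPAN7 IgA. Thus 5 of the 10 genes were called higher, against 4.46% of all genes, and 0 lower, against 4.08%. These 5 also had groups that did not overlap, against 28.4% of all genes. BDNF IgA gave 1 call, EGR1, among the 10 (4.49% of all genes were called higher and 3.18% lower), and EGR1, IER2 and IER3 had separate groups (24.8% of all genes). Both comparisons use the same untreated libraries.

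**Figure D3:**
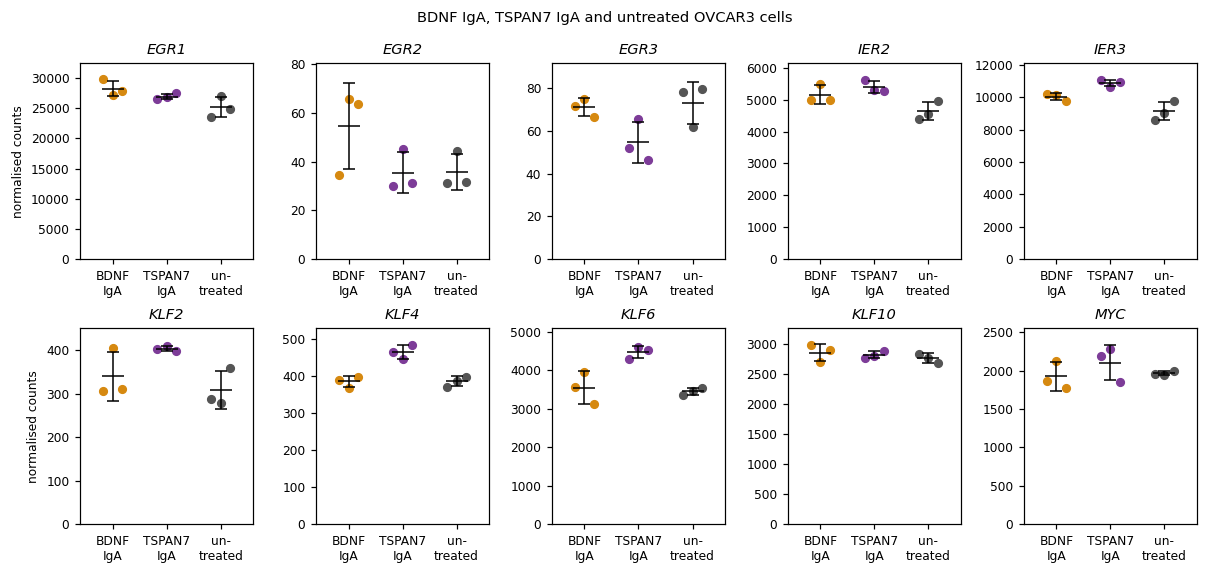
Normalised counts of the 10 genes in the second series, 1 panel per gene with its own linear axis from 0. Each point is a library (replicates 1 to 3 from left to right), with the mean ± SD of 3 libraries; KLF6 points with TSPAN7 IgA lie between 4292 and 4606, above all other points.

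KLF6 stood at 4292, 4606 and 4529 normalised counts with TSPAN7 IgA, at 3567, 3962 and 3112 with BDNF IgA and at 3355, 3460 and 3534 in untreated cells. The TSPAN7 IgA libraries exceeded all others, whereas those with BDNF IgA straddled the untreated ones. KLF6 had a log2 fold change of 0.38 ± 0.06 for TSPAN7 IgA against untreated cells (adjusted p = 0.000475) and 0.34 ± 0.06 for TSPAN7 IgA against BDNF IgA (adjusted p = 0.00204). For BDNF IgA against untreated cells it was 0.04, interval −0.09 to 0.17 (adjusted p = 0.775).

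IER3 stood at 11058, 10663 and 10941 normalised counts with TSPAN7 IgA, at 10195, 10139 and 9771 with BDNF IgA and at 8623, 9047 and 9745 in untreated cells. The 3 groups did not overlap in any pairing. IER3 had a log2 fold change of 0.25 ± 0.05 for TSPAN7 IgA against untreated cells (adjusted p = 0.00115), whereas the differences of 0.13 for BDNF IgA against untreated cells (adjusted p = 0.0771) and 0.12 for TSPAN7 IgA against BDNF IgA (adjusted p = 0.124) were not called. IER2 stood at 5627, 5298 and 5283 normalised counts with TSPAN7 IgA, at 4977, 5505 and 4995 with BDNF IgA and at 4400, 4554 and 4946 in untreated cells. Both antibody groups lay above the untreated libraries. IER2 had a log2 fold change of 0.22 ± 0.05 for TSPAN7 IgA (adjusted p = 0.00907), and 0.15 for BDNF IgA, which missed the threshold (adjusted p = 0.0741). Without untreated replicate 3, BDNF IgA gave calls of IER2 (0.20, adjusted p = 0.0346) and IER3 (0.18, adjusted p = 0.0272). The TSPAN7 call of IER2 was lost without TSPAN7 IgA replicate 1 (adjusted p = 0.0527) or untreated replicate 1 (adjusted p = 0.0697).

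KLF2 stood at 402.4, 410.0 and 398.4 normalised counts with TSPAN7 IgA, at 306.2, 405.5 and 309.8 with BDNF IgA and at 288.7, 278.2 and 359.4 in untreated cells. KLF4 stood at 463.4, 445.8 and 483.9 normalised counts with TSPAN7 IgA, at 390.0, 368.6 and 397.3 with BDNF IgA and at 370.8, 387.4 and 398.2 in untreated cells. For both genes the TSPAN7 IgA libraries lay above the untreated ones, and for KLF4 above those with BDNF IgA too. The log2 fold change for TSPAN7 IgA against untreated cells was 0.38 ± 0.12 for KLF2 (adjusted p = 0.0424) and 0.27 ± 0.08 for KLF4 (adjusted p = 0.0491). These calls were close to the threshold: leaving out 1 library ended that of KLF2 in 5 of 6 cases and that of KLF4 in 6 of 6 cases, with adjusted p up to 0.181 and 0.174. The KLF4 call was also lost with DESeq2 (adjusted p = 0.0639) and without a filter (adjusted p = 0.0926).

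EGR1 stood at 29722, 27227 and 27743 normalised counts with BDNF IgA, at 26466, 26834 and 27419 with TSPAN7 IgA and at 23602, 26914 and 24917 in untreated cells. The BDNF IgA libraries lay above the untreated ones by a small margin, and those with TSPAN7 IgA overlapped them. EGR1 had a log2 fold change of 0.17 ± 0.05 for BDNF IgA (adjusted p = 0.0373) and 0.10 for TSPAN7 IgA, interval −0.003 to 0.20 (adjusted p = 0.246). The BDNF IgA call was lost in a fit of only the 6 libraries (adjusted p = 0.0771), without BDNF IgA replicate 1 (0.13, adjusted p = 0.197) or 3 (adjusted p = 0.0598), and without untreated replicate 1 (0.12, adjusted p = 0.207) or 3 (adjusted p = 0.109).

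The other 4 genes were not called in the second series. EGR2 had 34, 66 and 67 raw counts with BDNF IgA, 30, 43 and 29 with TSPAN7 IgA and 31, 44 and 35 in untreated cells, and its log2 difference between BDNF IgA and untreated cells was 0.61, interval 0.03 to 1.20 (adjusted p = 0.201). EGR3 had 71, 75 and 70 raw counts with BDNF IgA, 52, 62 and 43 with TSPAN7 IgA and 77, 61 and 88 in untreated cells, and its log2 difference between TSPAN7 IgA and untreated cells was −0.42, interval −0.85 to 0.01 (adjusted p = 0.234). These low counts left intervals wide enough to hold changes in either direction for EGR2 with TSPAN7 IgA, −0.63 to 0.61. KLF10 ranged from 2675 to 2978 normalised counts over all 9 libraries, with a log2 difference of 0.05, interval −0.05 to 0.15, for BDNF IgA and 0.03, interval −0.07 to 0.13, for TSPAN7 IgA. MYC ranged from 1774 to 2277 normalised counts, with a log2 difference of −0.03, interval −0.18 to 0.12, for BDNF IgA and 0.10, interval −0.05 to 0.25, for TSPAN7 IgA.

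The 2 antigen-specific antibodies were also compared directly. Of the 10 genes, KLF6 was called higher with TSPAN7 IgA than with BDNF IgA and 0 were called lower, where 3.42% of all genes were called higher and 4.50% lower. The groups did not overlap for KLF6, KLF4, IER3 and EGR3, against 23.6% of all genes. KLF4 differed by 0.27 ± 0.08 on the log2 scale and missed the threshold (adjusted p = 0.0507) but passed it with limma voom (adjusted p = 0.0435) and RLE scaling (adjusted p = 0.0486). KLF2 differed by 0.25 ± 0.11 (adjusted p = 0.206), and by 0.39 without BDNF IgA replicate 2, when it was called (adjusted p = 0.0127). EGR1 differed by −0.07, interval −0.17 to 0.03 (adjusted p = 0.436).

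**Figure D4:**
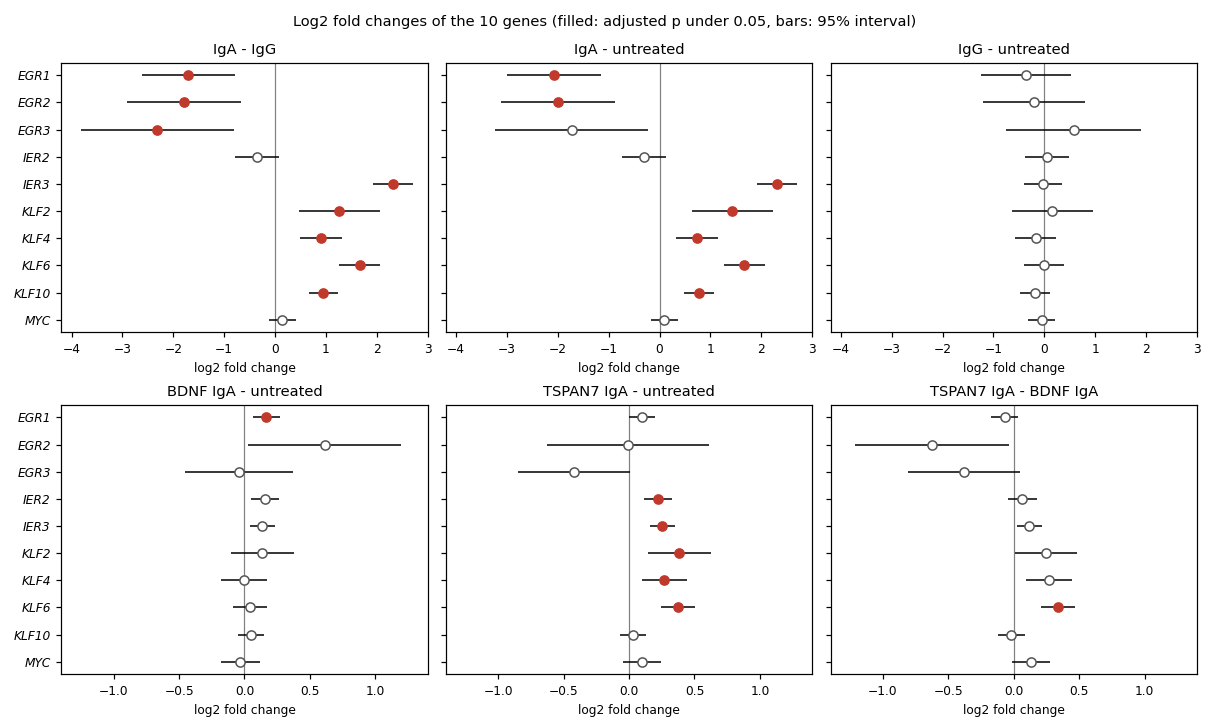
Log2 fold changes of the 10 genes in the 6 comparisons, with bars for 95% intervals and filled points for an adjusted p under 0.05; the upper and lower rows have different axes. With non-specific IgA the EGR points lie left of 0 and IER3 and the KLF points right of it, and in the lower row KLF6 is filled in both comparisons of TSPAN7 IgA.

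Immediate-early genes beyond the 10 were taken from a list of 28 names, of which 26 were tested. With non-specific IgA, 14 were called higher than with IgG and 0 lower, where 12.6% of all genes were called higher and 11.6% lower. The median log2 fold change was 0.58 over the list against −0.01 over all genes. The largest increases were those of MAFF, a small MAF factor of the stress response, with 3.60, FOSL1, an AP-1 subunit, with 3.32, and DUSP1, a phosphatase that inactivates MAP kinases, with 2.81. FOS and FOSB, AP-1 subunits picked from the list for their decrease, differed by −1.39 ± 0.57 (adjusted p = 0.0961) and −1.29 ± 0.48 (adjusted p = 0.0657) and were not called. Against untreated cells 14 of the 26 were called higher and 0 lower (12.9% and 12.1% of all genes), with a median of 0.52. With IgG 0 were called.

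In the second series, TSPAN7 IgA raised 12 of these 26 genes and lowered 1, IER5L by −0.19 (4.46% and 4.08% of all genes). The median log2 fold change was 0.22 against 0.00 over all genes. The largest changes were those of ATF3, a stress-induced repressor, with 0.82, NR4A1, an orphan nuclear receptor, with 0.78, and FOSB with 0.73. BDNF IgA raised 2 of the 26, FOS by 0.25 and ZFP36 by 0.18, and lowered 0 (4.49% and 3.18% of all genes). Against BDNF IgA, TSPAN7 IgA was higher in 9 of the 26 and lower in 0 (3.42% and 4.50% of all genes). The increases were led by DUSP1 with 0.64, FOSL1 with 0.58 and FOSB with 0.58, and the median was 0.15.

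**Figure D5:**
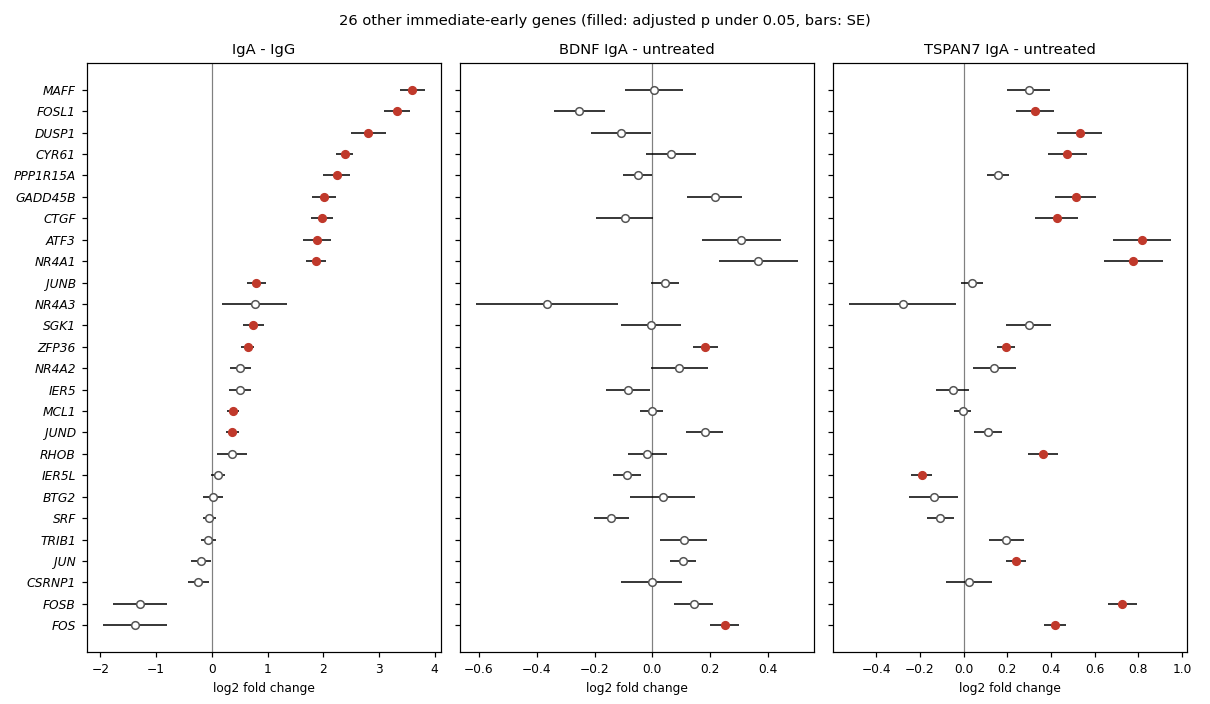
Log2 fold changes of 26 other immediate-early genes for non-specific IgA against IgG, BDNF IgA against untreated cells and TSPAN7 IgA against untreated cells, with SE bars, filled points for an adjusted p under 0.05 and a different axis in each panel. Filled points number 14 in the first panel, 2 in the second and 13 in the third, and FOS and FOSB lie left of 0 in the first panel alone.

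Regulators of these genes were counted as well. Of 9 SRF, ETS and CREB factors of immediate-early promoters, 3 were higher and 2 lower with non-specific IgA than with IgG (12.6% and 11.6% of all genes). These were ELK3, a ternary complex factor, by 1.14, CREM by 0.47 and ELK1 by 0.36, and the SRF coactivators MKL1 by −0.46 and MKL2 by −0.37. SRF itself differed by −0.05 and was not called. BDNF IgA against untreated cells gave 1 higher, ELK3 by 0.20, and 1 lower, ELK1 by −0.21, and TSPAN7 IgA gave 0 in either direction. Of all genes, 4.49% were called higher and 3.18% lower with BDNF IgA, and 4.46% and 4.08% with TSPAN7 IgA. Of 6 regulators of AU-rich messenger RNAs, 3 were higher and 0 lower with non-specific IgA than with IgG, the decay-promoting ZFP36L1 by 1.89, ZFP36 by 0.64 and ZFP36L2 by 0.44. Against untreated cells, non-specific IgA gave 2 higher and 0 lower of the 6 (12.9% and 12.1% of all genes). ZFP36L1, ZFP36 and ZFP36L2 were all called higher against untreated cells with TSPAN7 IgA, by 0.26, 0.19 and 0.16, and with BDNF IgA, by 0.19, 0.18 and 0.20. With BDNF IgA, HNRNPD (−0.24) and KHSRP (−0.14), which also bind such sites, were called lower.

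Genes known as EGR1 targets were counted next. Of 12 corepressors and textbook targets, 8 were called higher and 0 lower with non-specific IgA than with IgG (12.6% and 11.6% of all genes). The median log2 fold change was 1.11. The largest were F3, the tissue factor gene, with 3.04, ICAM1, an adhesion molecule, with 2.63, and THBS1, thrombospondin, with 2.28. The corepressors NAB1 (−0.25) and NAB2 (0.17) were not called. With TSPAN7 IgA against untreated cells 5 of the 12 were called higher and 1 lower (4.46% and 4.08% of all genes). The largest increases were THBS1 with 0.88, F3 with 0.45 and FN1 with 0.44. BDNF IgA raised 3 and lowered 0 (4.49% and 3.18% of all genes): FN1 by 0.82, PDGFB by 0.38 and ICAM1 by 0.34. Between TSPAN7 and BDNF IgA 2 were higher with TSPAN7 IgA, THBS1 by 0.57 and F3 by 0.40, and 2 lower, FN1 by −0.38 and TGFB1 by −0.21. Of all genes, 3.42% were called higher and 4.50% lower there.

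Other Krüppel-like and SP factors formed a further list. Of 15 tested, 5 were higher and 0 lower with non-specific IgA than with IgG (12.6% and 11.6% of all genes). They were led by KLF7 with a mean of 4316 normalised counts against 1523, KLF5 with a log2 fold change of 0.77 and KLF9 with 0.68. BDNF IgA raised 3, KLF15 by 0.78, KLF9 by 0.57 and KLF3 by 0.18, where 4.49% of all genes were called higher. TSPAN7 IgA gave 0 calls in either direction (4.46% and 4.08% of all genes). Between the antigen-specific antibodies KLF15 was the 1 call, lower with TSPAN7 IgA (−0.76), where 4.50% of all genes were called lower.

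MYC was called in none of the 6 comparisons by edgeR with all libraries in the fit. Without BDNF IgA replicate 2 it was called higher with TSPAN7 IgA than with BDNF IgA (0.21, adjusted p = 0.0268). Of 12 partners and antagonists, 3 were called higher and 4 lower with non-specific IgA than with IgG (12.6% and 11.6% of all genes). These were MLX by 0.68, MXI1 by 0.64 and MNT by 0.54, and MYCN by −1.49, MYCL by −1.35, MXD4 by −0.86 and MLXIP by −0.34. MAX, its obligate partner, differed by −0.15 and was not called. Of 25 MYC targets of ribosome biogenesis and growth, 4 were called higher and 0 lower, LDHA by 0.74, RRP9 by 0.73 and PES1 by 0.38 being the largest, and the median was 0.12. Over all genes 12.6% were called higher, so the share of these targets was near the background. Against untreated cells 4 were called higher and 2 lower (12.9% and 12.1% of all genes), the latter NOP58 by −0.43 and APEX1 by −0.31. BDNF IgA gave 0 higher and 5 lower of the 25 (4.49% and 3.18% of all genes). The largest were the glycolytic LDHA by −0.27 and the polyamine synthesis genes SRM by −0.20 and ODC1 by −0.19. TSPAN7 IgA gave 2 higher and 1 lower (4.46% and 4.08% of all genes). Against BDNF IgA, TSPAN7 IgA was higher in 7 of the 25 and lower in 0 (3.42% and 4.50% of all genes). BOP1 by 0.32, SRM by 0.22 and WDR43 by 0.18 led the increases. Of 7 genes that MYC is known to repress, 4 were higher and 0 lower with non-specific IgA than with IgG (12.6% and 11.6% of all genes). CDKN1A by 1.99, GADD45A by 1.76 and CDKN2B by 1.21 were the largest.

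As a description over the 18 libraries, with both series centred on their own mean and with libraries of a group sharing their treatment, the genes closest to each of the 10 were sought among 13347 genes. IER3 was nearest to SDF2L1 (Pearson's r = 0.991), EMP1 (0.988) and the chemokine CCL20 (0.987). KLF6 was nearest to CAV2 (0.99), EDN1 (0.989) and SNAPC1 (0.989), and KLF2 to the WNT inhibitor DKK1 (0.975), DOCK10 (0.968) and NSFL1C (0.967). EGR1 was nearest to TRMT10C (0.97), CSRP2BP (0.966) and VANGL1 (0.964), and IER2 to ZBED6CL (0.87), FOSB (0.858) and AGPAT3 (0.847). KLF4 was nearest to B4GALT4 (0.948), UGCG (0.944) and RNF144B (0.931), KLF10 to SEMA3A (0.976), WIPF1 (0.973) and SOCS6 (0.972), and MYC to SLC7A1 (0.793), SCAND2P (0.735) and GARS (0.711). These values rest mainly on the first series: within the second, KLF10 had r = 0.489 with SEMA3A, −0.263 with WIPF1 and 0.241 with SOCS6, and EGR1 had 0.355 with TRMT10C, whereas KLF6 and CAV2 had 0.934. Among the 10 themselves, IER3 and KLF6 had r = 0.982 in the 9 libraries of the first series and 0.787 in those of the second, KLF6 and KLF10 had 0.975 and −0.136, and EGR1 and IER3 had −0.767 and 0.515. EGR2 and EGR3 were too low for this comparison.

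In the genome build of the counts (GRCh37), EGR1 lies on chromosome 5 from 137801168 to 137804992 on the plus strand with 2 exons, IER3 on chromosome 6 from 30710976 to 30712325 on the minus strand with 2 exons, KLF6 on chromosome 10 from 3818188 to 3827473 on the minus strand with 4 exons, KLF2 on chromosome 19 from 16435637 to 16439496 on the plus strand with 3 exons, and KLF4 on chromosome 9 from 110247133 to 110252763 on the minus strand with 5 exons. EGR2 lies on chromosome 10 from 64571756 to 64578927 on the minus strand and IER2 on chromosome 19 from 13261225 to 13265725 on the plus strand. EGR3 (22545172 to 22550993, minus strand), KLF10 (103661012 to 103667953, minus strand) and MYC (128747680 to 128755197, plus strand) lie on chromosome 8. No source used here states a strand setting for the counting, so antisense reads cannot be told apart from those of the gene. Exons of opposite-strand long noncoding genes share 440 bases (IER3-AS1) and 85 bases (HCG20) with IER3, 662 and 946 bases with IER2, 357 bases with KLF4, 194 bases (CASC11) with MYC and 164 bases with EGR3, and a same-strand noncoding gene shares 145 bases with EGR2.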

How the data were processed

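RNA from 18 OVCAR3 libraries was analysed, 3 in each of 6 groups taken from the sample titles. Per the study's methods, the authors trimmed 75-bp paired-end reads with cutadapt 1.8.1, aligned them to GRCh37 with STAR 2.5.3a and counted uniquely mapped reads with featureCounts 1.5.3. The submitters' processing notes name bcl2fastq 2.20.0.422, cutadapt 1.8.1 and HTSeq 0.6.1 instead of featureCounts. The labels name a library kit made for degraded RNA. The values the authors deposited are raw counts per gene with no normalization. In the second series 2055 rows repeated another row exactly and were dropped, which left 55765 symbols in both series.

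Each series was fitted alone with all 9 libraries in edgeR 4.0.16 (R 4.3.3) with TMM scaling, filterByExpr and the two-sided quasi-likelihood F test, and p-values were adjusted by Benjamini-Hochberg over all genes of a comparison. The threshold was an adjusted p of 0.05. The SE was derived from the log2 fold change and F, and intervals are at 95%. No gene set was tested: lists are given by counts and medians. Transcript lengths, untranslated regions and positions came from GENCODE lifted to GRCh37, promoters from RefSeq. Alternatives were DESeq2 1.42.0, limma voom with quality weights (limma 3.58.1), RLE and library-size scaling, no filter, at least 10 counts in every library of a group, no mitochondrial or ribosomal RNA genes, a replicate block, the 6 libraries compared, and leaving out each library.

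The 10 genes, the lists and the alternatives were chosen with earlier results of these data known. The rule for named genes was all 10 genes, up to 3 called genes at either end of each list and comparison, and for likeness the 3 genes with the highest Pearson correlation of log2 CPM (prior count 2) among genes with a mean of at least 50 normalised counts in both series. FOS, FOSB, SRF, NAB1, NAB2 and MAX were also named where they were not called. Total counts per library limit the precision of EGR2 and EGR3. Reads carry no molecular identifiers, so precision was taken from the replicates. The result of 1 gene of the list of EGR1 targets is not reported here.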

Additional observations from a re-analysis of the deposited data

Results flagged for a closer look

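KLF6 differed between the 2 antigen-specific antibodies: the test of TSPAN7 IgA against BDNF IgA gave a log2 difference of 0.34 ± 0.06 (SE, edgeR adjusted p = 0.00204), with all 3 TSPAN7 IgA libraries above all 3 BDNF IgA libraries. The difference was 0.25 to 0.42 when single libraries were left out and 0.32 to 0.36 under the other settings, and it passed the threshold in each.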

How the results depend on the processing

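Each of the 10 genes was recomputed in 6 comparisons under 15 alternatives: 810 values kept direction and side of the threshold, 35 lost a call, 19 gained one and 36 changed sign, all of the last uncalled. IER3, KLF6, KLF10 and EGR1 kept their calls for non-specific IgA against either group under every alternative, as did IER3 and KLF6 for TSPAN7 IgA against untreated cells. The cause of the changes was not tested.

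Of the 10 genes, BDNF IgA against untreated cells gave 1 call, but 2 with DESeq2 and with no filter, 3 with voom and with library-size scaling, 0 in the fit of 6 libraries and 0 to 2 when single libraries were left out. TSPAN7 IgA against untreated cells gave 5, and 2 to 4 when single libraries were left out. TSPAN7 against BDNF IgA gave 1, but 3 with voom, 2 with RLE scaling, without mitochondrial and ribosomal RNA genes and with the replicate block, and 1 to 3 when single libraries were left out. Over all genes, voom called 2427, 2442 and 2751 in these comparisons, against 1437, 1600 and 1484 with edgeR, and leaving out single libraries gave 734 to 2798, 757 to 1371 and 482 to 3276. For non-specific IgA it gave 2566 to 5286 against IgG (4360 with all libraries) and 2601 to 5229 against untreated cells (4503). IgG against untreated cells gave 0, and 2 with no filter.

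Signs turned for uncalled genes. With library-size scaling, MYC was −0.085 against IgG and −0.11 against untreated cells for non-specific IgA, IER3 0.010 for IgG and KLF4 0.015 for BDNF IgA. With voom, IER3 was 0.067 for IgG, KLF4 0.017 for BDNF IgA and EGR2 0.039 for TSPAN7 IgA. KLF6 for IgG was −0.0023 with DESeq2 and −0.0020 with RLE scaling, and KLF4 for BDNF IgA was 3e-04 without mitochondrial and ribosomal RNA genes. Leaving out single libraries gave, for IgG against untreated cells, −0.14 to 0.21 for IER2, −0.17 to 0.18 for IER3, −0.13 to 0.50 for KLF2, −0.15 to 0.14 for KLF6 and −0.16 to 0.039 for MYC. For BDNF IgA it gave −0.15 to 0.025 for EGR3, −0.010 to 0.26 for KLF2, −0.027 to 0.027 for KLF4, −0.051 to 0.12 for KLF6 and −0.11 to 0.021 for MYC. It gave −0.22 to 0.17 for EGR2 with TSPAN7 IgA and −0.058 to 0.013 for KLF10 between the antigen-specific antibodies.

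The replicate numbers were not treated as pairing the libraries. Over all genes tested, deviations of same-numbered libraries correlated at −0.069 to 0.089, except for replicate 3 of IgG and untreated cells, at 0.247. A replicate block gave 9, 7, 0, 1, 5 and 2 calls among the 10 genes in the 6 comparisons, the ninth being IER2 for non-specific IgA against IgG (−0.34, adjusted p = 0.0478), and 4340, 4428, 0, 1655, 1759 and 1728 over all genes. For non-specific IgA against IgG, the block lowered the edgeR adjusted p of EGR1 from 0.0114 to 0.000381. It raised that of KLF6 from 7.8e-05 to 0.000477. Depth limits EGR2 and EGR3, which held at most 55 and 52 counts in a library of the first series.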

Other observations

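EGR1 had its lowest normalised count in replicate 3 of each group of the first series, with 1684 for non-specific IgA, 8807 for IgG and 10072 for untreated cells, and KLF2 had its lowest in replicate 3 of the IgG (84.5) and untreated (94.3) groups but its highest in replicate 3 of the IgA group (584.5). The 10 genes together took 774.9, 909.5 and 537 CPM in the IgG libraries and 1047, 925.7 and 571.6 in the untreated libraries, replicate 3 being the lowest of both groups.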
